A study of Homo sapiens with 20 samples.

Results

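Collagens are the proteins that carry most of the tensile load of the extracellular matrix, and each collagen molecule is a triple helix of 3 alpha chains encoded by COL genes. The collagen genes were taken as all coding records of the deposited catalogue that carry a symbol of the form COL, number, A, number, and for each symbol the record with the highest mean level over the days was kept. This gave 42 genes among 20237 coding records and 38369 records in all. They were sorted into 11 fibrillar, 8 basement membrane, 4 transmembrane and 19 other collagens, the last comprising 10 fibril-associated chains, 4 beaded-filament chains and 5 short-chain, anchoring and remaining chains.

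The RNA came from neural progenitors of the human embryonic stem cell line H1. The day 0 cells had grown on Matrigel, itself a basement membrane extract, in medium with FGF, under which progenitors go on dividing. Differentiation towards neurons was started by withdrawing FGF and adding BDNF, a neurotrophic factor, and polyadenylated RNA was sequenced on day 0 and on 6 later days up to day 18. The labels list 20 cultures, 3 on each of 6 days and 2 on day 5, and give no genetic change in any of them. The cultures of days 5, 11 and 18 were moved at day 4 onto poly-D-lysine and laminin. Comparisons of these days with day 4 or earlier, day 18 with day 0 among them, therefore include this new surface.

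Levels are FPKM, which is a count of sequenced fragments divided by the length of the transcript and by the mapped total, and the deposited values are 1 authors' value per record and day over all cultures of that day. No spread between cultures, depth, interval or test could therefore be given, and every comparison is a description of these values. Differences between days are changes in log2(FPKM + 0.1), which understate the change of genes with low levels, and a record is counted as higher or lower when the change reaches 2-fold. The median change of the 11793 coding records with a mean of at least 1 FPKM was -0.60 on this log2 scale between day 0 and day 18, so counts are also given relative to it. In bulk RNA, fewer cells of a type and less RNA per cell cannot be told apart.

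Fibrillar collagens assemble into the striated fibrils of connective tissue and cartilage. Type IV collagen forms the network of basement membranes, which in the brain underlie the pia and the vessels and anchor the endfeet of radial progenitors. Transmembrane collagens sit in the plasma membrane with their collagenous part outside the cell, and type VI collagen forms beaded filaments that link cells to the matrix around them. Chains are hydroxylated, folded by chaperones in the endoplasmic reticulum, trimmed after secretion and cross-linked by lysyl oxidases.

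The label of the cells was compared with markers. NES and SOX2, an intermediate filament gene and a transcription factor gene of neural progenitors, stood at 513 and 126 FPKM on day 0. The other listed progenitor markers, VIM, MSI1, SOX1 and PAX6, stood at 2948, 47.8, 11.1 and 4.31 FPKM on that day. On day 18 NES, SOX2, VIM, MSI1 and SOX1 were lower, at 180, 66.1, 1493, 35.2 and 8.61 FPKM. PAX6 was higher on day 18, at 10.4 FPKM. All 5 neuronal markers with a record were higher on day 18 than on day 0 by 2-fold, where 7.57% of coding records were. The summed level of these markers went from 149 to 1078 FPKM. The pluripotency gene POU5F1 lay between 0.0358 and 0.108 FPKM throughout, and NANOG stayed under it on every day. DPPA4, another gene of pluripotent cells, went from 9.72 to 2.25 FPKM.

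The regulatory sequence next to 3 of the genes is shown first, because these genes carry patterns described further on. COL4A1 and COL4A2 are a head-to-head pair on chromosome 13, transcribed in opposite directions, with record starts 134 bases apart. COL13A1 had the largest change between day 0 and day 18 among the 24 collagens with a mean of at least 1 FPKM. Sequences are from the GRCh37 (hg19) genome, 5′ to 3′ on the plus strand, and leave out bases that GENCODE places in an exon. Capitals mark matches, on either strand, to letters known from core promoters or from factors of collagen genes. The TATA box was searched as TATAAA and the CCAAT box as its own name. The GC box was searched as GGGCGG, which reads CCGCCC on the other strand. The site known for AP-1 factors was searched as TGANTCA, and the site known for TEAD factors as CATTCC.
COL4A1-COL4A2, chr13:110959505-110959604: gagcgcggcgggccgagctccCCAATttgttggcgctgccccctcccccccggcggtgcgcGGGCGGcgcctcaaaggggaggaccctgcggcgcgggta
COL13A1, chr10:71561394-71561635: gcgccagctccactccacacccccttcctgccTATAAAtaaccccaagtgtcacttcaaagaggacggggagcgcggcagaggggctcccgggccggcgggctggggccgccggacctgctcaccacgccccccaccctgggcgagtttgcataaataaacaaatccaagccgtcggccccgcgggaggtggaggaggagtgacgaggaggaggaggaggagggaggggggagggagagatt

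The COL4A1-COL4A2 gap held 1 CCAAT and 1 GGGCGG. Of 19222 coding windows of the same 134 bases upstream of a start, 23.3% held CCAAT and 43.8% held GGGCGG. The COL13A1 window held a single TATAAA, which lay 218 bases before the record start. Over 250 bases upstream, 26 of the 42 collagens held GGGCGG against 51.9% of all coding windows, 12 held CCAAT against 32.9%, 5 held TATAAA against 9.07%, 3 held CATTCC against 10.6% and 1 held TGANTCA against 4.91%. The median share of G and C was 67.2% over the windows of the 42 collagens and 60.8% over all coding windows. These matches describe letters only, and no binding was measured. Windows lie before record starts, some of which are inside the gene as GENCODE places it, by 1472 bases at COL4A2 and 65333 at COL14A1.

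Of the 42 collagens, 24 had a mean of at least 1 FPKM over the 7 days. A mean over days can be carried by 1 high day, and COL13A1, COL22A1 and COL5A1 would have been under 1 FPKM without day 0. Just inside that bound were COL5A1 with a mean of 1.02 FPKM, COL22A1 with 1.03 and COL24A1 with 1.10, and just outside it were COL9A2 with 0.921, COL23A1 with 0.740 and COL17A1 with 0.720. The other 18 are accounted for after the groups. Of the 42 collagens, 18 overlapped exons of records on the opposite strand, 11 of them over more than 10% of their own exon bases. The authors' programs were run with default options, which do not use strand, so reads of such a pair cannot be told apart.

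Between day 0 and day 18, 20 of the 24 collagens were lower by 2-fold and 2 were higher. The 20 include COL13A1, COL22A1 and COL5A1, which passed the filter on the mean only through day 0, where they were high. The count of 20 is thus in part set by the filter. Among coding records with the same mean level, 29.9% were lower and 7.57% higher. Over all 42 collagens without a filter, 25 were lower and 3 higher, beside 20.1% and 8.02% of all coding records. Relative to the median change, 16 of the 24 were lower and 2 higher, where 12.1% of coding records were lower and 14.7% higher. The median collagen change was -2.55, or -1.95 relative to the median of coding records. COL7A1 and COL11A2 were the 2 higher genes, and COL6A1 was the third whose day 18 value exceeded its day 0 value. With a pseudocount of 1 in place of 0.1, neither COL7A1 nor COL11A2 reached 2-fold, at 0.856 and 0.747 on the log2 scale.

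**Figure D1:**
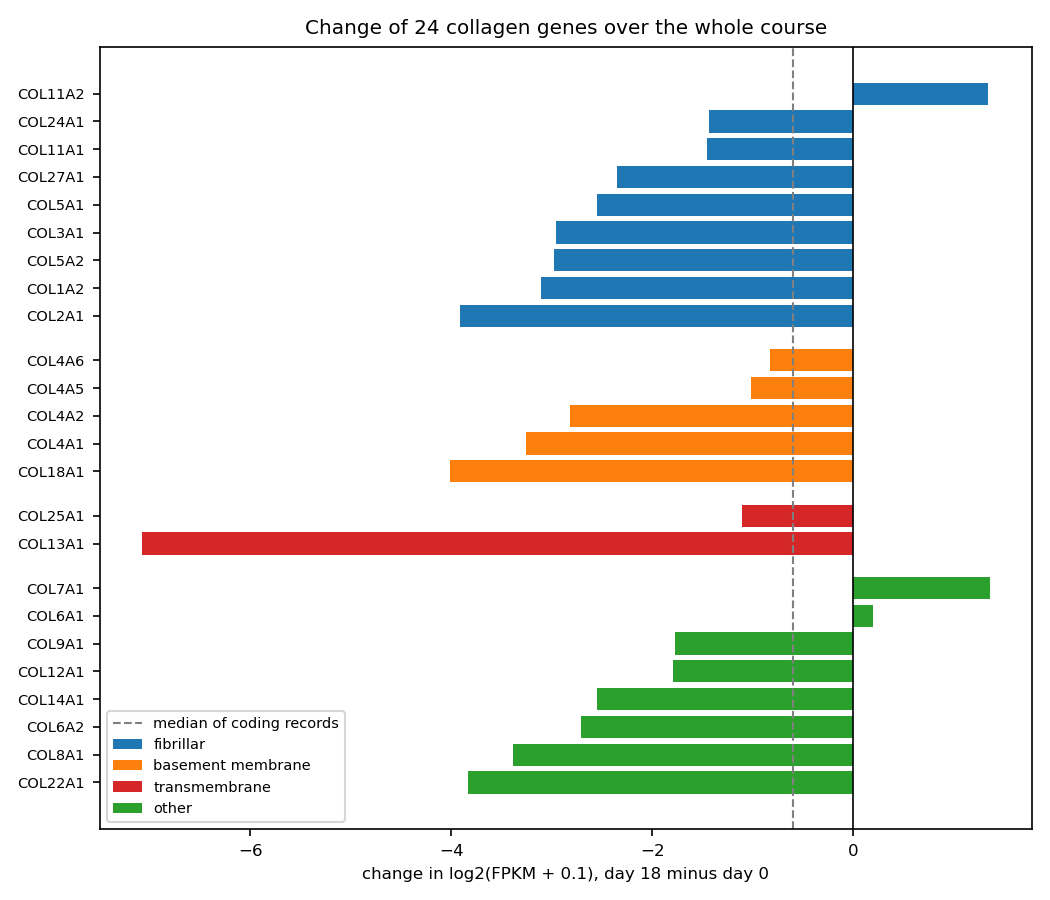
Change in log2(FPKM + 0.1) from day 0 to day 18, day 18 minus day 0, for the 24 collagens with a mean of at least 1 FPKM, 1 bar per gene, coloured by group. The dashed line marks the median of coding records at -0.60. COL13A1 reached -7.08, and only the bars of COL11A2, COL7A1 and COL6A1 point to the right.

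Of the fibrillar group, which held the highest collagen on every day, 8 of the 9 genes with a mean of at least 1 FPKM were lower on day 18 by 2-fold. The median change of the 9 was -2.55, and COL5A1, 1 of the 8, passed that mean only through day 0. Beside them, 29.9% of coding records were lower. Relative to the median change of coding records 6 of the 9 were lower by 2-fold, COL11A1 and COL24A1 no longer among them. COL3A1 (chr2:189839099-189877472, plus strand), the sole chain of type III collagen, was the highest collagen on every day. From day 0 over days 1, 2, 4, 5 and 11 to day 18 it stood at 238, 236, 162, 137, 122, 73.8 and 30.5 FPKM, and other 7-value series below follow the same order. It was all but level over the first day and lower at each later day, with 12.8% of its day 0 level left at day 18. COL1A2, the alpha 2 chain of type I collagen, stood at 33.6, 30.3, 25.7, 23.3, 25.1, 9.70 and 3.81 FPKM on those days. Most of its drop came after day 5, with a 2.59-fold lower value at day 11 and a further 2.55-fold lower value at day 18. Its partner COL1A1, the alpha 1 chain, was listed at 0 on all 7 days. The record of ACTB, the cytoplasmic actin that every cell uses, was listed at 0 on every day too, as were 1757 coding records in all, so an exact 0 here can be a failed estimate and no level of COL1A1 is given.

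COL2A1 (chr12:48366749-48398285, minus strand), the chain of cartilage type II collagen, which also occurs in the early neuroepithelium, stood at 103, 61.6, 52.7, 47.4, 41.4, 23.6 and 6.70 FPKM. Its level was lower at each successive day, and at day 18 it was 15.3-fold below day 0, the largest ratio among the fibrillar genes. COL5A2, a chain of the type V collagen that starts fibrils, stood at 68.7, 48.6, 46.7, 38.8, 33.8, 15.4 and 8.65 FPKM. Its partner COL5A1 was far lower, between 0.193 and 1.61 FPKM, and the ratio of the pair stayed between 30.9 and 44.7 over the 7 days. COL3A1 and COL5A2 are neighbours on chromosome 2, and their ratio lay between 3.46 and 4.85.

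COL11A1 had another shape. It encodes the alpha 1 chain of type XI collagen, which lies inside cartilage fibrils, and stood at 39.4, 37.2, 50.4, 55.2, 45.3, 17.5 and 14.3 FPKM. Its highest value was on day 4, and it was the third collagen by level on days 4 and 5. COL11A2 (chr6:33130469-33160245, minus strand), the alpha 2 chain of the same molecule, was 1 of the 2 genes that were higher. It stood at 0.606, 0.995, 1.38, 1.01, 1.06, 1.27 and 1.70 FPKM, a 2.80-fold difference between the ends at low levels. The ratio of COL11A1 to COL11A2 thus went from 64.9 on day 0 to 8.43 on day 18. COL11A2 had 6 further records on other copies of its region in the catalogue, between which reads could be split.

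COL27A1, a fibrillar chain of developing cartilage, stood at 9.05, 6.06, 3.51, 3.42, 3.97, 2.05 and 1.70 FPKM. It was more than 2-fold below its first value by day 2. COL24A1 stood at 1.54, 1.15, 1.46, 0.998, 1.19, 0.865 and 0.504 FPKM, without an order over the first days. Lowest of the fibrillar genes with a level was COL5A3, the third type V chain, at no more than 0.449 FPKM.

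**Figure D2:**
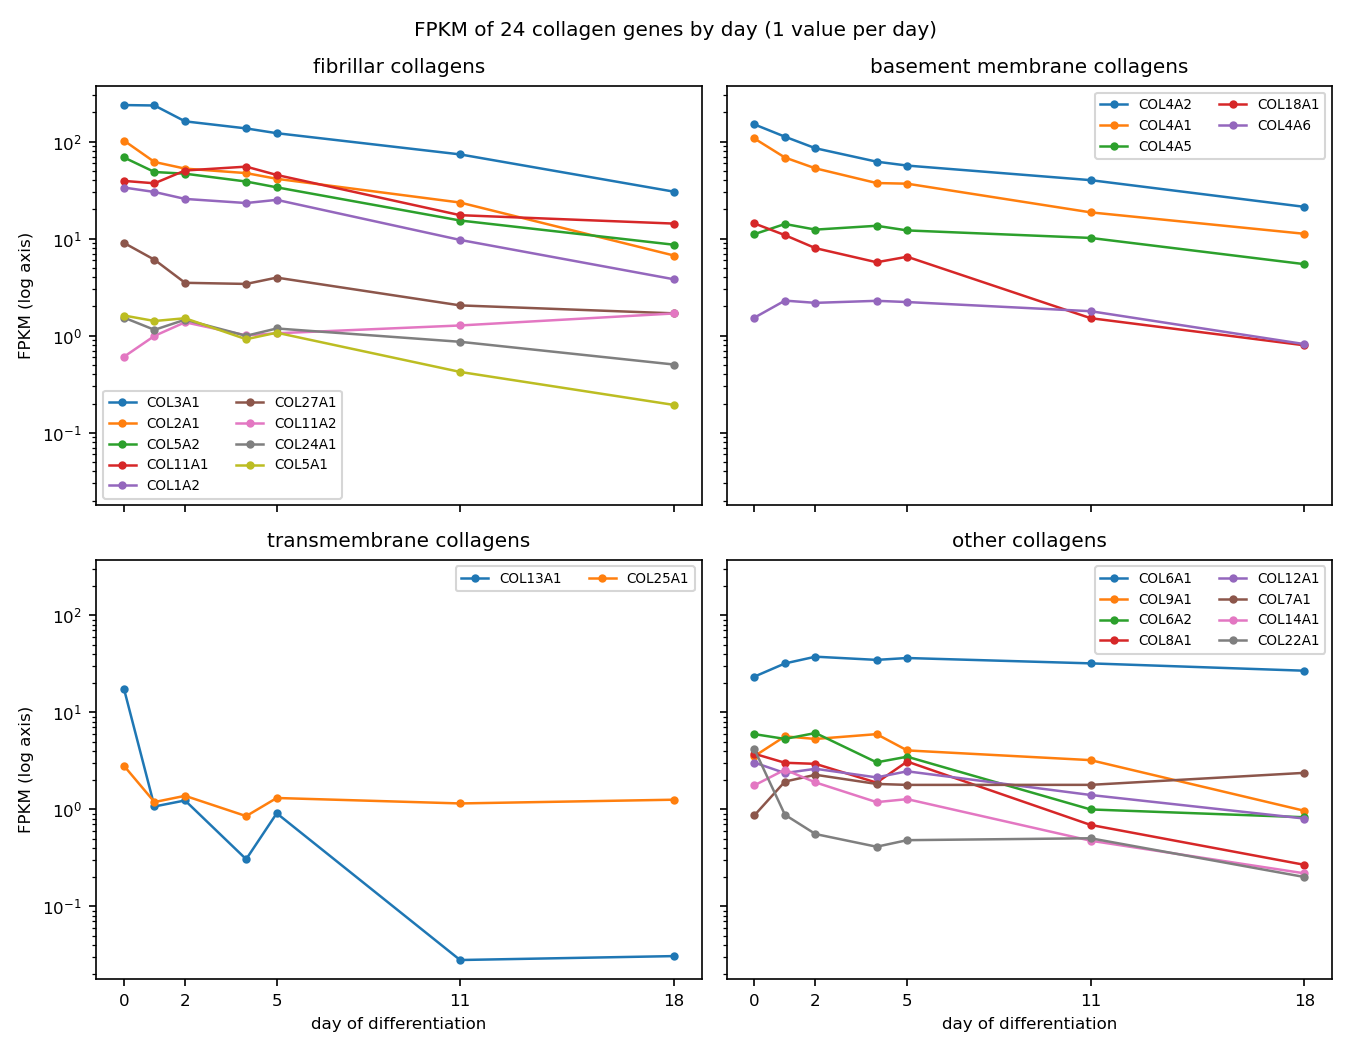
FPKM of the 24 collagens with a mean of at least 1 FPKM against day of differentiation, in 4 panels by group, on a log axis, with 1 value per gene and day over all cultures of that day. Most lines end below where they start, whereas COL6A1 stays between 23.3 and 37.5 FPKM and COL13A1 goes from 17.6 to 0.0308 FPKM.

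Among basement membrane collagens, 4 of the 5 genes with a mean of at least 1 FPKM were lower at day 18 by 2-fold, with a median change of -2.82. By comparison, 29.9% of coding records were lower. Relative to the median change of coding records 3 of the 5 were lower by 2-fold, and COL4A5 was at -0.41. COL4A2 (chr13:110959631-111165371, plus strand) and COL4A1 (chr13:110801311-110959496, minus strand) encode the chains of the type IV network found in nearly all basement membranes. COL4A2 stood at 150.4, 112, 85.4, 62.1, 56.6, 40.1 and 21.3 FPKM. COL4A1 stood at 108, 68.5, 53.0, 37.4, 36.8, 18.7 and 11.2 FPKM. The pair shared its course, each gene being lower on every successive day, and the ratio of COL4A2 to COL4A1 lay between 1.40 and 2.15.

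COL4A5 and COL4A6, the X-linked head-to-head pair with record starts 449 bases apart, encode type IV chains of a more restricted set of basement membranes. COL4A5 stood at 11.1, 14.2, 12.4, 13.6, 12.2, 10.2 and 5.46 FPKM. COL4A6 stood at 1.53, 2.30, 2.18, 2.29, 2.22, 1.79 and 0.819 FPKM. Neither was under its day 0 level before day 11, and both were lowest on day 18, with 49.1% and 53.4% of the day 0 level left. The ratio of COL4A5 to COL4A6 lay between 5.47 and 7.25, whereas that of COL4A1 to COL4A5 went from 9.68 to 2.05. The third pair, COL4A3 and COL4A4, known from kidney and lung basement membranes, stayed under 0.1 FPKM on every day. Its record starts lie 5 bases apart, and are 59 and 106 bases upstream of the starts in GENCODE.

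COL18A1, whose C-terminal fragment is endostatin, stood at 14.4, 10.9, 7.98, 5.71, 6.51, 1.52 and 0.796 FPKM. Its largest step was a 4.29-fold lower value at day 11 than at day 5. Its relative COL15A1 went from 0.878 FPKM on day 0 to 0.246 on day 1 and was at no more than 0.0466 from day 11.

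**Figure D3:**
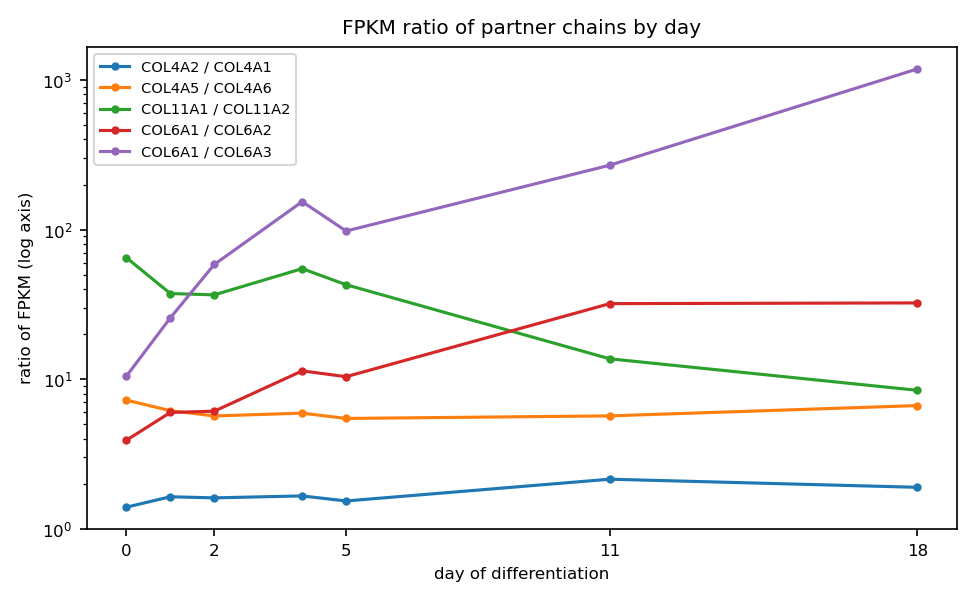
FPKM ratio of 5 pairs of chains by day, on a log axis, 1 value per day. COL4A2 over COL4A1 stays between 1.40 and 2.15 and COL4A5 over COL4A6 between 5.47 and 7.25, whereas COL6A1 over COL6A3 goes from 10.5 to 1185. The value of 1185 rests on COL6A3 at 0.0227 FPKM, which is near 0.

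Both transmembrane collagens with a mean of at least 1 FPKM were lower at day 18 by 2-fold, though COL13A1 passed that mean only through day 0. The share of coding records lower was 29.9%. Relative to the median change of coding records only 1 of the 2 was lower by 2-fold, with COL25A1 at -0.50. COL13A1 (chr10:71561644-71718903, plus strand), a collagen of cell adhesions and the neuromuscular junction, stood at 17.6, 1.07, 1.24, 0.307, 0.912, 0.0280 and 0.0308 FPKM. It was 16.4-fold lower after the first day, with 6.10% of its day 0 level left, and 32.5-fold lower at day 11 than at day 5, where the later value is near 0. It was also the sole collagen of the 24 lower by 2-fold between days 2 and 4, where 0.653% of coding records were, and the sole one higher between days 4 and 5, the step with the replating, where 0.254% were. COL25A1, the precursor of a collagen found in amyloid plaques, stood at 2.82, 1.19, 1.38, 0.852, 1.31, 1.15 and 1.26 FPKM. After the first day it stayed within 0.852 to 1.38 FPKM. COL17A1, of the hemidesmosomes of epithelia, and COL23A1 had means under 1 FPKM but passed 1 FPKM on day 0. COL17A1 went from 3.68 FPKM on day 0 to 0.573 on day 1 and 0.152 on day 18. COL23A1 went from 3.03 to 0.650 and 0.360 FPKM on the same days. All 4 transmembrane genes were thus more than 2-fold lower at day 1 than at day 0. Of coding records with a mean of at least 1 FPKM, 3.09% were lower at this step. COL13A1 passed that mean only through day 0, COL17A1 and COL23A1 did not pass it, and nothing is read from the count.

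Type VI collagen is built from COL6A1, COL6A2 and COL6A3 chains, and these 3 genes took separate courses. COL6A1 (chr21:47401663-47424963, plus strand) stood at 23.3, 31.9, 37.5, 34.7, 36.3, 31.96 and 26.8 FPKM. COL6A2, its neighbour on chromosome 21, stood at 5.96, 5.32, 6.12, 3.05, 3.49, 0.999 and 0.830 FPKM. COL6A3, on chromosome 2, stood at 2.23, 1.24, 0.641, 0.226, 0.371, 0.119 and 0.0227 FPKM, with a mean under 1 FPKM. COL6A1 was above its day 0 level on each later day, COL6A2 was about level until day 2, and COL6A3 was lower from day 1. The ratio of COL6A1 to COL6A2 went from 3.91 to 32.4 and that of COL6A1 to COL6A3 from 10.5 to 1185. The value of 1185 rests on COL6A3 at 0.0227 FPKM, which is near 0 and has an unknown counting error. COL6A1 shares 58.9% of its exon bases with a lincRNA record of the other strand listed at 0.319 to 0.509 FPKM, and COL6A2 shares 71.9% of its exon bases with another at no more than 0.0822 FPKM. The part of these overlaps in the ratio was not tested. COL29A1, an older symbol of a further type VI chain, stayed under 0.1 FPKM.

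Fibril-associated collagens bind to the surface of fibrils. All 4 with a mean of at least 1 FPKM were lower at day 18 by 2-fold, with a median change of -2.17. Of these, COL22A1 passed that mean only through day 0. The share of coding records lower was 29.9%, and all 4 were also lower by 2-fold relative to the median change. COL9A1, a chain of type IX collagen, stood at 3.53, 5.65, 5.32, 5.96, 4.05, 3.22 and 0.966 FPKM. It was above its day 0 level until day 5, and its main drop was the 3.33-fold lower value of the last step. Its partners COL9A2, between 0.718 and 1.08 FPKM, and COL9A3, between 0.174 and 0.434 FPKM, ended near their first values, so the ratio of COL9A1 to COL9A2 went from 4.05 to 1.01. COL12A1, which binds type I fibrils, stood at 3.04, 2.37, 2.62, 2.14, 2.47, 1.41 and 0.804 FPKM. Its relative COL14A1 stood at 1.77, 2.56, 1.90, 1.19, 1.28, 0.476 and 0.219 FPKM, with its highest value on day 1. COL22A1, a collagen of tissue junctions, stood at 4.18, 0.880, 0.557, 0.412, 0.482, 0.504 and 0.201 FPKM. It was 4.75-fold lower after 1 day and stayed near or below that level.

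COL7A1 (chr3:48601506-48632593, minus strand), which encodes the anchoring fibrils that hold epithelia to the tissue below, was the second gene that was higher. It stood at 0.867, 1.93, 2.27, 1.83, 1.79, 1.79 and 2.38 FPKM. The change was made by day 1 and the level stayed between 1.79 and 2.38 FPKM afterwards. A lincRNA record of the other strand, at no more than 0.0803 FPKM, overlapped 29.1% of its exon bases. COL8A1, a short-chain collagen of vessel walls and the corneal membrane, stood at 3.74, 3.02, 2.95, 1.89, 3.11, 0.692 and 0.268 FPKM. It shares 53.1% of its exon bases with a lincRNA record of the other strand that stood at 3.34, 2.96, 2.49, 1.88, 3.19, 0.651 and 0.259 FPKM, nearly the same values, so the 2 levels cannot be told apart. Its partner COL8A2 stayed under 0.1 FPKM.

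Of the 18 genes with a mean under 1 FPKM, 4 passed 1 FPKM on at least 1 day: COL17A1, COL23A1, COL6A3 and COL9A2. The mean was under 0.1 FPKM in 8, COL1A1 included, and from 0.1 to 1 FPKM in 10. COL10A1, the collagen of hypertrophic cartilage, was at no more than 0.0813 FPKM. COL28A1, a collagen known from peripheral glia, was the only low gene that was higher by 2-fold, going from 0.0722 FPKM on day 0 to 0.404 on day 18. The lower ones by 2-fold were COL15A1, COL17A1, COL21A1, COL23A1 and COL6A3.

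The steps between adjacent days separate early from late changes. Between days 0 and 1, COL13A1, COL25A1 and COL22A1 were lower by 2-fold and COL7A1 was higher, 3 and 1 of the 24, where 3.09% of coding records were lower and 3.60% higher. COL13A1 and COL22A1 passed the filter on the mean only through day 0, where they were high, so the count of 3 is in part set by the filter and nothing is read from it. Between days 1 and 2 none of the 24 passed 2-fold, and 0.144% of coding records were lower and 0.136% higher. From day 5 to day 11, 9 of the 24 were lower and 0 higher, beside 4.24% and 1.80% of coding records. These 9 were COL18A1, COL8A1, COL6A2, COL11A1, COL1A2, COL14A1, COL5A1, COL5A2 and COL13A1. From day 11 to day 18, 7 were lower, beside 3.72% of coding records, and they were COL2A1, COL9A1, COL1A2, COL3A1, COL8A1, COL4A6 and COL22A1. COL1A2 and COL8A1 were in both late lists. The last step has a median change of coding records of -0.28, and relative to it 3 of the 24 were lower by 2-fold.

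**Figure D4:**
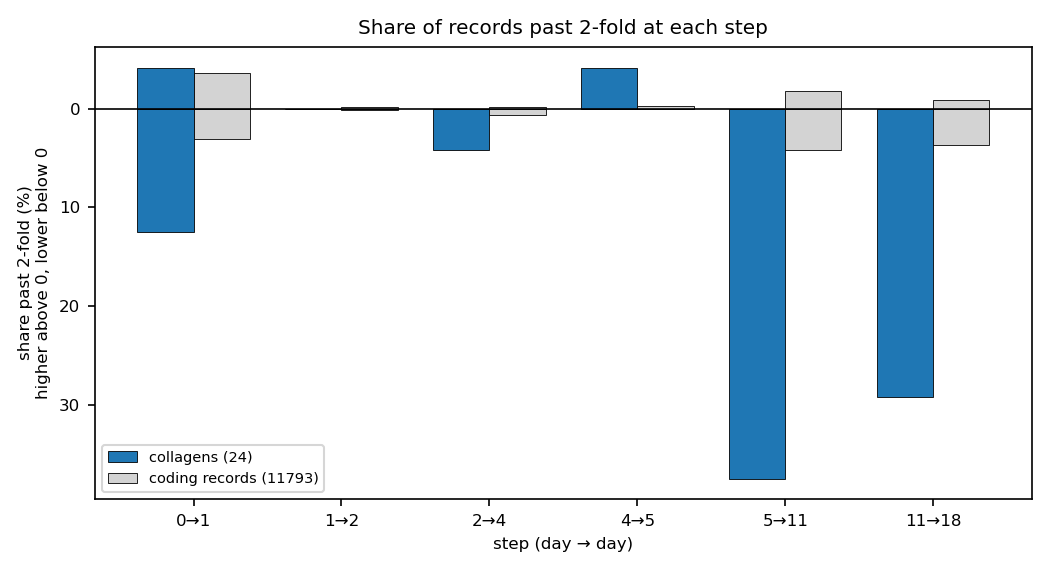
Share of records past 2-fold at each step between adjacent days, in percent, with higher records above 0 and lower records below 0, for the 24 collagens and for 11793 coding records. The collagen share lower was 37.5% at day 11 against day 5, 29.2% at day 18 against day 11, and 0% at day 2 against day 1.

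Summed over all 42 genes, collagen made up 859 FPKM on day 0 and 693, 571, 484, 449, 262 and 144 FPKM on the later days. As a share of the summed FPKM of coding records this was 0.239% on day 0 and 0.0667% on day 18. The number of collagens at 1 FPKM or more went from 25 to 13, and the number at 10 FPKM or more from 11 to 5. Fibrillar genes held 57.6% of the collagen sum on day 0 and 47.2% on day 18, and basement membrane genes 33.3% and 27.5%. The remaining, non-transmembrane group went from 5.92% to 24.04%. Most of that was COL6A1, with 2.72% of the sum on day 0 and 18.6% on day 18, when it was second to COL3A1 at 21.1%. Among coding records COL3A1 went from rank 176 to rank 1384 by level, while COL6A1 went from rank 3376 to rank 1609.

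**Figure D5:**
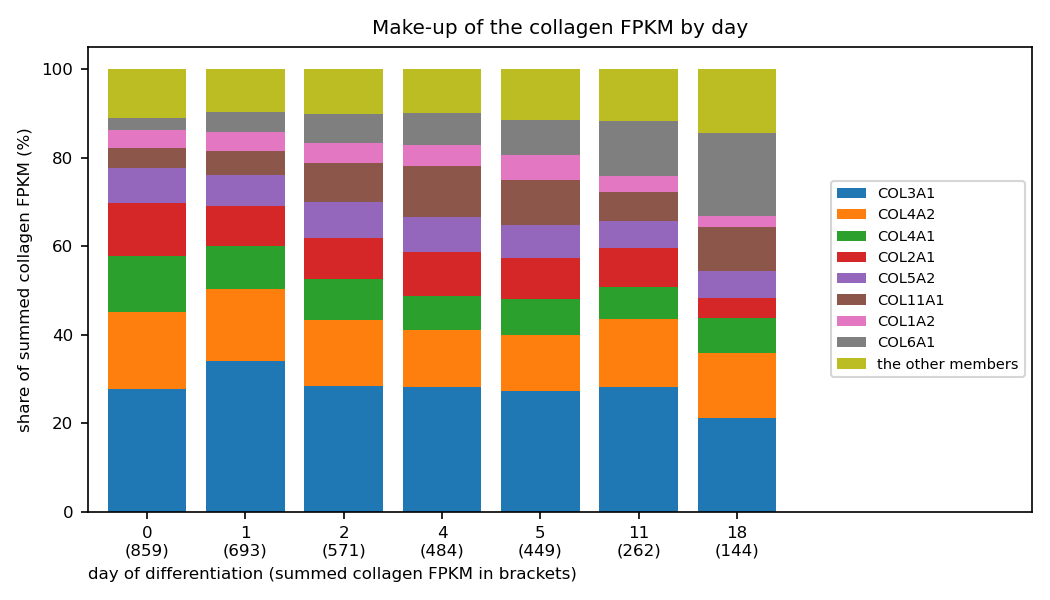
Share of the summed collagen FPKM held by each of 8 genes and by the other members together, in percent, for each day, with the summed FPKM in brackets under the day. COL3A1 holds the largest share on every day, and the COL6A1 share goes from 2.72% to 18.6%.

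Genes of collagen biosynthesis were counted beside the collagens. Of 27 with a mean of at least 1 FPKM, 15 were lower at day 18 than at day 0 by 2-fold and 1 was higher. Their median change was -1.25, and 29.9% of coding records were lower and 7.57% higher. Relative to the median of coding records 10 were lower and 3 higher, beside 12.1% and 14.7% of coding records. The 1 higher gene, TLL2, had a mean of 1.04 FPKM and would have been under 1 FPKM without day 18, where it was high. Of the 13 that modify chains, 7 were lower, among them LEPREL1, a prolyl 3-hydroxylase, which went from 18.6 to 1.91 FPKM. PPIB, the prolyl isomerase with the highest level of that list, went from 369.9 to 107 FPKM. Of 5 folding and export genes 3 were lower: SERPINH1, the collagen chaperone HSP47, went from 225 to 29.9 FPKM, FKBP10 from 71.8 to 21.0 and FKBP14 from 9.96 to 2.33. The export receptor MIA3 was level, at 8.49 and 9.15 FPKM.

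Of 5 genes that cleave propeptides or help to, BMP1, the C-proteinase, went from 8.25 to 3.0 FPKM and PCOLCE2 from 1.77 to 0.767, while TLL2, a relative of BMP1, went from 0.503 to 1.79. Of 4 cross-linking genes 3 were lower. LOXL2 stood at 49.3, 14.8, 11.8, 6.87, 8.05, 3.27 and 1.82 FPKM, LOX went from 29.6 to 4.34 and LOXL1 from 27.1 to 5.80. LOXL2 had the earliest drop of the 3, with its largest step on the first day.

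Receptors of collagen did not follow 1 direction. DDR1, a tyrosine kinase of epithelia and glia that binds collagen, stood at 96.4, 108, 118, 161, 172, 162 and 131 FPKM, the highest of the list on every day. DDR2, its relative of mesenchymal cells, stood at 0.705, 4.66, 5.54, 3.09, 2.49, 0.620 and 1.25 FPKM, with a peak on day 2. ITGA1, the alpha subunit of a collagen-binding integrin, whose record also carries the symbol PELO, went from 15.0 to 3.49 FPKM, and ITGA2 from 1.78 to 0.809. Of 6 small leucine-rich proteoglycans, which coat fibrils, BGN went from 10.9 to 0.0315 FPKM and LUM from 5.80 to 2.06.

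Markers of other cell types that make collagen were also mostly lower on day 18. Of 13 mesenchymal markers 8 had a mean of at least 1 FPKM. Of these, 6 were lower at day 18 by 2-fold, beside 29.9% of coding records. The summed level of the list was highest on day 0 at 513 FPKM and lowest on day 18 at 56.9 FPKM. TAGLN, a smooth muscle gene, made up most of the day 0 sum, at 367 FPKM, and stood at 19.4 FPKM on day 18. FN1, FBN1, THY1 and PDGFRB were the others at 2-fold, besides LUM, and FN1, encoding fibronectin, went from 77.4 to 12.7 FPKM. PDGFRB had a mean of 1.03 FPKM and would have been under 1 FPKM without day 0, where it was high. The records of PDGFRB and PDGFRA carry 2 symbols each, so their values may not be those of the marker alone. The other members ranged widely: on day 0 PDGFRA stood at 27.3 FPKM, S100A4 at 1.63, ACTA2 at 1.5 and TWIST1 at 1.21, and by day 18 they were at 16.4, 0.124, 0.736 and 0.360 FPKM. TWIST2, PRRX1 and DCN were at no more than 0.109, 0.224 and 0.108 FPKM on any day. All 3 pericyte markers with a mean of at least 1 FPKM, RGS5, ABCC9 and KCNJ8, were lower by 2-fold, beside the same share of coding records. The other listed pericyte markers, CSPG4 and ANPEP, were at no more than 0.584 and 0.0300 FPKM on any day. The summed pericyte level went from 24.2 to 3.31 FPKM. The summed endothelial level went from 27.7 to 0.803 FPKM over the 4 markers with a record, with KDR at 23.8 FPKM on day 0, CDH5 at 2.34 and VWF at no more than 0.0763. The part of these cell types in the collagen levels was not tested.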

How the data were processed

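RNA-Seq was done by the authors on the cultures named above. According to the methods of the study, reads were aligned by the authors to hg19 with TopHat2, and the authors merged assembled transcripts with coding and lincRNA catalogues and estimated levels with Cuffdiff2 at default options, with versions not given in the sources used here. The deposited FPKM values hold 1 value per record and day. The number of columns of single samples was 0, so depth, spread and precision are unknown. The deposited comparison columns, with log2 fold changes, test statistics, p-values and q-values of adjacent days, were not used.

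Each symbol kept the record with the highest mean FPKM. Changes were taken in log2(FPKM + 0.1), among records with a mean of at least 1 FPKM, at a threshold of 2-fold. Counting was tested on simulated data. Named collagens were, by rule, those with a mean of at least 1 FPKM, or with 1 day at 1 FPKM, and the partner chains of either; COL10A1, COL15A1, COL21A1 and COL28A1 fall outside it and were named after their values were seen. Of other lists, up to 5 genes past 2-fold and the highest were named, and values of others were chosen after they were seen. The members and lists were chosen with earlier results of these data known. Group names came from titles. Sequences were read from GRCh37, and GENCODE placed a gene of the same name and strand at all 42 collagens, with COL29A1 matched under its current symbol. Python 3.11.15, pandas 2.3.3, numpy 2.4.6 and matplotlib 3.10.9 were used. Alternatives covered the pseudocount, filter, scaling, threshold and merged records. Some upstream sequences are not reported here.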

Additional observations from a re-analysis of the deposited data

How the results depend on the processing

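No paired analysis was possible because the deposited files hold 1 value per day and none per culture, and leaving out each culture was not run for the same reason. Of 70 values under alternative settings, 47 stayed near the reported value and 23 moved. Reversal was looked for in the medians only, and 0 reversed. Another pseudocount cannot change the direction of a gene. Under another scaling, 0 of the 24 collagens with a mean of at least 1 FPKM changed direction. Scaling added at most 0.721 on the log2 scale, and the lower gene nearest to 0 was COL4A6 at -0.83. No lower gene could thus have been turned by it. The count of collagens higher at day 18 than at day 0 went from 2 to 0 with a pseudocount of 1 and to 0 at 3-fold. The count lower at day 1 went from 3 to 6 with a mean of at least 0.1 FPKM and to 6 with no filter, where COL15A1, COL17A1 and COL23A1 enter. The median collagen change of -2.549 became -1.648 with a pseudocount of 1, -2.826 with 0.01, -2.446 with a mean of at least 0.1 FPKM, -1.446 with no filter, -1.95 relative to the median of coding records and -1.982 with each day rescaled to the same total. That rescaling adds at most 0.721 on the log2 scale to a change between day 0 and day 18. It took the biosynthesis genes lower by 2-fold from 15 to 9. Their median of -1.25 became -1.187 and -1.257 with the pseudocounts of 1 and 0.01, -1.18 and -1.013 with the lower and no filter, -0.6516 relative to the median, -0.5342 rescaled and -1.341 for records with 1 symbol. For the last 2 steps the alternatives were chosen after seeing the data: collagens lower from day 5 to day 11 went from 9 to 4 at 3-fold, and those from day 11 to day 18 from 7 to 4 with a pseudocount of 1, 3 relative to the median, 2 rescaled and 2 at 3-fold. No depth is known, so values near 0.1 FPKM and below carry an unknown counting error.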

Other observations

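At the last step 2 enzymes of collagen modification had higher levels. P4HA1, a catalytic subunit of prolyl 4-hydroxylase, went from 5.99 FPKM on day 11 to 24.5 on day 18, and PLOD2, the lysyl hydroxylase of telopeptides, from 2.04 to 8.52. These are 4.10-fold and 4.17-fold higher values. Of the other chain-modifying genes, P4HA2 was 1.45-fold, LEPREL2, whose record carries 2 symbols, 1.2-fold and PLOD3 1.17-fold higher at this step. Before it, the levels of P4HA1 and PLOD2 had been lower on day 11 than on any earlier day. They were chosen after their values were seen, and with 1 value per day no test was possible.

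EMID2, which the current nomenclature lists as COL26A1 and which the rule on symbols does not take, stood at 17.8, 10.5, 6.55, 4.80, 5.07, 4.63 and 6.00 FPKM on the 7 days, so its lowest value was on day 11. Of 73 lincRNA records named after a neighbouring collagen gene, 2 had a mean of at least 1 FPKM and 54 never reached 0.1 FPKM. The highest, linc-COL9A1, stood at 40.9, 15.6, 17.4, 12.4, 16.2, 7.73 and 5.01 FPKM, above COL9A1 itself on every day. linc-COL28A1 went from 0.269 FPKM on day 0 to 1.35 on day 18, and COL28A1 was higher on day 18 than on day 0 too. These records were picked after their values were seen.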
